A study of Caenorhabditis elegans with 6 samples.

Results

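The microRNAs (miRNAs) miR-61 and miR-250, whose genes are neighbours on chromosome V, were examined together with their seed relatives on the array, miR-45 and miR-247 for miR-61 and miR-2 for miR-250. Members were chosen by the target name of the spots, which gave 5 of the 108 miRNAs on the array, each printed as 4 spots of 1 oligo. All 5 exceeded the detection level and were tested. The arrays compared whole Caenorhabditis elegans adults of 2 temperature-sensitive genotypes, fem-3(q20ts) and fem-2(b245ts), both grown at 25 °C and harvested 24 hours after the late L4 larval stage, on day 1 of adulthood. At that temperature fem-3(q20ts), a gain-of-function allele, gives a germ line that makes sperm and no oocytes. In fem-2(b245ts), a loss-of-function allele, the germ line makes oocytes and no sperm. Each genotype was represented by 2 biological replicates, of which replicate 1 was hybridised to 2 technical arrays and replicate 2 to 1 array. There was no wild-type sample among the arrays analysed. Both alleles act on the germ line of whole animals, so less RNA per cell and fewer cells of a kind cannot be told apart.

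A miRNA is a short RNA that guides an Argonaute protein to messenger RNAs, mainly through its seed, the bases near its 5′ end. miRNAs that share a seed can act on the same targets, while neighbouring miRNA genes can be processed from one transcript. The gene of miR-61 is known in C. elegans as a direct target of LIN-12, a Notch receptor, in vulval precursor cells, where miR-61 represses vav-1, the orthologue of the Vav oncogene. miR-44 and miR-45 are known to give the same mature sequence from separate genes on chromosome II. The seed family of miR-44, miR-45, miR-61 and miR-247 has been reported to promote the sperm fate in the hermaphrodite germ line. miR-2 belongs to an invertebrate family that acts on pro-apoptotic genes in flies.

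Signal was read as the authors' scaled intensity, averaged on the log2 scale over the spots of an oligo. Differences are fem-3(q20ts) minus fem-2(b245ts), so that a positive value means more signal in fem-3(q20ts). As a check of the labels, miR-35 to miR-41, miRNAs of oocytes and embryos, held 0.353% to 0.478% of the miRNA signal on the fem-3(q20ts) arrays and 11.8% to 14.2% on the fem-2(b245ts) arrays. Background was read from spots of Buffer alone; their 95th percentile lay at 17.8 to 41.5 on the fem-3(q20ts) arrays and 21.4 to 127 on the fem-2(b245ts) arrays, with the 2 highest on both arrays of fem-2(b245ts) replicate 1. Markers of other tissues, 1 miRNA for each, had log2 differences of -0.17 for miR-1 (muscle), 0.75 for miR-60 (intestine) and 0.41 for miR-124 (neurons). Their part in the values of the 5 members was not tested.

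None of the 5 members passed the limma threshold of an adjusted p of 0.05, against 8.51% of the 94 miRNAs tested, and 0 of the 5 reached an unadjusted p under 0.05, against 10.6%. Their log2 differences ran from -1.03 for miR-61 to 0.83 for miR-247, with a median of 0.33, beside a median of 0.14 over all tested miRNAs. Of the 5, 3 had positive and 2 negative differences. On 3 of 5 (miR-61, miR-250 and miR-2) the arrays of the genotypes did not overlap, which held for 28.7% of the tested miRNAs. Of these 3, 1 lay lower in fem-3(q20ts) and 2 lay higher, against 12.8% and 16% of the tested miRNAs. The sign was the same in both replicates for 4 of 5 members (all but miR-45), against 77.7%. With 2 biological samples in each genotype, the uncalled differences have wide intervals, and they do not show that the genotypes were alike. The smallest difference called among all miRNAs was 1.89 in size on the log2 scale.

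**Figure D1:**
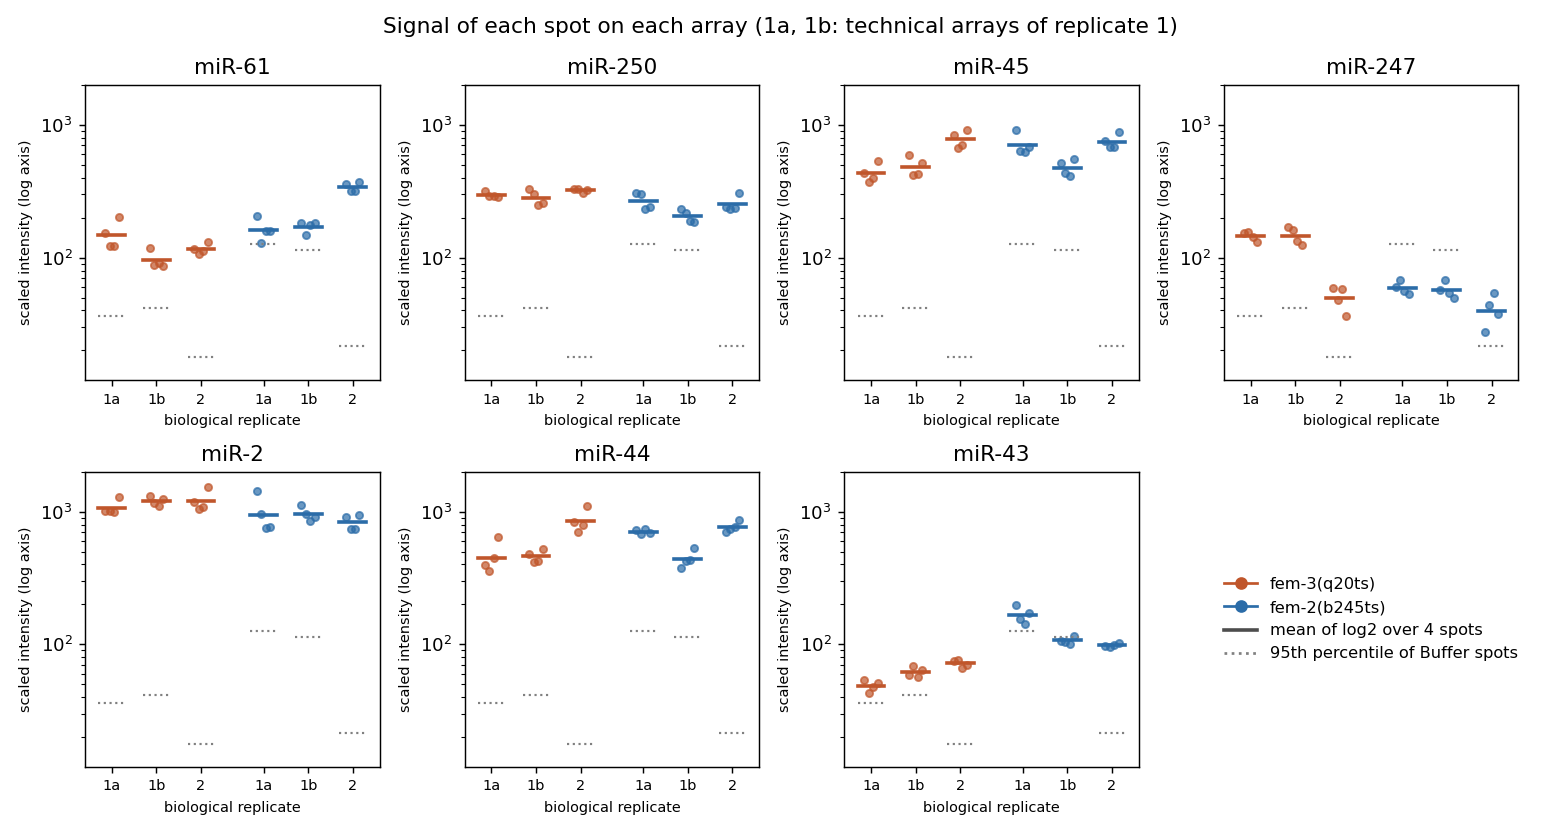
Scaled intensity (log axis) of each of the 4 spots on each array for the 5 members and for miR-44 and miR-43, the other tested miRNAs of the 2 seed families. Thick lines are the mean of log2 over the spots, dotted lines the 95th percentile of the Buffer spots of that array; miR-61 is highest in fem-2(b245ts) replicate 2 (342) and miR-247 in fem-3(q20ts) replicate 1 (146 on both arrays).

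miR-61 had the largest negative mean difference of the members. Its intensity was 147 and 95.4 on the technical arrays of replicate 1 and 116 in replicate 2 of fem-3(q20ts), against 161 and 171 on the technical arrays of replicate 1 and 342 in replicate 2 of fem-2(b245ts). All 3 fem-3(q20ts) arrays thus lay below all 3 fem-2(b245ts) arrays, though the highest fem-3(q20ts) array and the lowest fem-2(b245ts) array were close. On the technical arrays of fem-2(b245ts) replicate 1 the Buffer level was 127 and 114, so miR-61 was not far above it there. By biological sample it was 117 ± 2.03 in fem-3(q20ts) and 254 ± 124 in fem-2(b245ts) (SD, n = 2 each). The log2 difference was -1.03 (SE 0.44, 95% interval -2.14 to 0.090; limma adjusted p = 0.379, unadjusted p = 0.0645), a 2.04-fold lower mean in fem-3(q20ts) when averaged on the log2 scale. It ranked ninth from the lowest of the 94, and among the miRNAs that were not called only miR-42 was further down, at -1.25.

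The biological replicates of miR-61, each with its technical arrays averaged, differed by 0.035 on the log2 scale in fem-3(q20ts) and by 1.04 in fem-2(b245ts), where replicate 2 was the brighter. Between samples of the same replicate number the log2 difference was -0.49 for replicate 1 and -1.57 for replicate 2. Leaving out fem-2(b245ts) replicate 2 gave -0.51, and leaving out fem-2(b245ts) replicate 1 gave -1.55. In replicate 1 the technical arrays of fem-3(q20ts) differed by 0.62, which is more than the difference between the genotypes. The spots showed the same picture: they ran from 106 to 130 in fem-3(q20ts) replicate 2 and from 319 to 374 in fem-2(b245ts) replicate 2, with no overlap, whereas in replicate 1 the spots of both genotypes overlapped, at 86.4 to 201 in fem-3(q20ts) and 130 to 207 in fem-2(b245ts).

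For replicate 1 the scanner values before the authors' scaling were also at hand. There miR-61 was at 213 and 118 on the fem-3(q20ts) arrays and at 146 and 181 on the fem-2(b245ts) arrays, a log2 difference of -0.035. With normexp correction and quantile normalization of the scanner signals it was -0.060. The factors that scaled the arrays to one total were 0.689 and 0.807 for fem-3(q20ts) and 1.10 and 0.946 for fem-2(b245ts), and after scaling the replicate 1 difference was -0.49. The other members had unscaled differences in replicate 1 of 0.76 for miR-250, 0.11 for miR-45, 1.79 for miR-247 and 0.71 for miR-2. No scanner file was used for replicate 2. Scanner signal-to-noise scores of the miR-61 spots were 3.27 to 15.5 over these 4 arrays, and 0 of the spots of any member had saturated pixels.

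miR-250, the neighbour of miR-61, had a small difference in the other direction. Its intensity was 297 and 283 on the technical arrays of replicate 1 and 321 in replicate 2 of fem-3(q20ts), against 268 and 205 on those of replicate 1 and 252 in replicate 2 of fem-2(b245ts). The fem-3(q20ts) arrays all lay above the fem-2(b245ts) arrays, by a narrow margin. Biological samples averaged 306 ± 22.2 in fem-3(q20ts) and 243 ± 12.6 in fem-2(b245ts) (SD, n = 2 each). The log2 difference was 0.33 (SE 0.29, 95% interval -0.42 to 1.08; limma adjusted p = 0.635), with 0.31 for replicate 1 and 0.35 for replicate 2. The technical arrays of fem-2(b245ts) replicate 1 differed by 0.39, more than the genotypes did. The difference lay 0.20 above the median of the tested miRNAs. Its size depended on the scaling: it was 0.0063 on the miRNAs outside miR-35 to miR-41 and 0.89 on the spike control.

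The neighbouring genes were compared within arrays, where the scaling of an array drops out. The gap between 2 oligos on an array also depends on how well each oligo hybridises, so only its change between the genotypes can be read. The log2 signal of miR-61 minus that of miR-250 was -1.29 and -1.48 in fem-3(q20ts) replicates 1 and 2, against -0.49 and 0.44 in fem-2(b245ts) replicates 1 and 2. All fem-3(q20ts) arrays (-1.57 to -1.02) lay below all fem-2(b245ts) arrays (-0.73 to 0.44). This separation was fixed by the values above, because miR-61 lay lower and miR-250 higher on every fem-3(q20ts) array. The gap differed between the genotypes by -1.36, with -0.80 for replicate 1 and -1.92 for replicate 2. In the exact two-sided permutation test this gave p = 0.333, the smallest value that 2 samples against 2 allow, and 0.444 adjusted over the 4 pairs compared. That p follows from the same separation and is no support of its own. The replicate SD of the gap was 0.13 in fem-3(q20ts) and 0.66 in fem-2(b245ts). With 2 samples in each genotype that spread is itself poorly known, and this permutation test cannot pass a threshold.

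**Figure D2:**
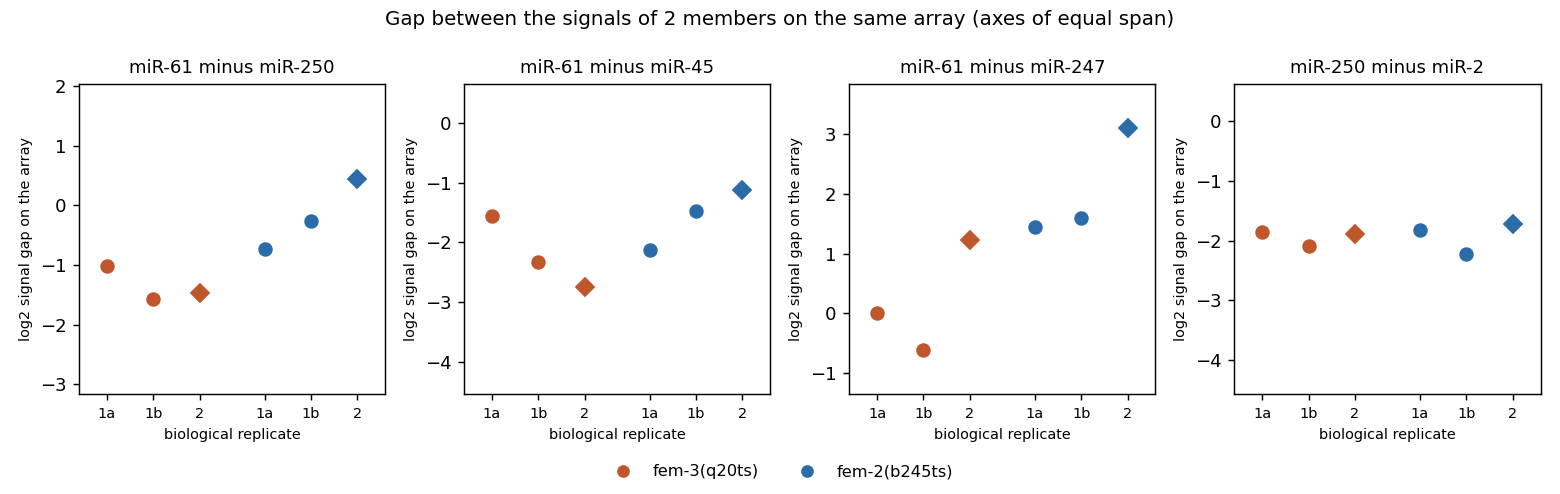
Log2 signal of one member minus that of another on each array, for 4 pairs, with fem-3(q20ts) at the left and fem-2(b245ts) at the right of each panel. Circles are technical arrays of replicate 1, diamonds replicate 2; the gaps of miR-61 against miR-250 do not overlap between the genotypes, those of miR-61 against miR-247 do not overlap as plotted but do once floored at the Buffer level, and those of the other pairs overlap.

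To set this gap in context, all pairs of miRNA genes with no other miRNA gene between them in the WBcel235 annotation were listed. Distance and strand were not considered, so the list is not limited to genes that could share a transcript. Both oligos were tested for 43 such pairs. The differences of miR-61 and miR-250 lay 1.36 apart, the fifth largest of these gaps, beside a median of 0.61 and a range of 0.0095 to 3.88. Opposite signs as in this pair occurred in 19 of the 43. The other tested neighbour of miR-61 by this measure was miR-87, whose difference was 0.38. The gap of miR-61 and miR-87 was 1.41, next above in rank, so both ranks share the value of miR-61.

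Among the seed relatives of miR-61, miR-247 had the opposite sign. The gene of miR-247 lies on chromosome X. Its intensity was 146 on each technical array of replicate 1 and 49.4 in replicate 2 of fem-3(q20ts), against 59.3 and 56.8 on the technical arrays of replicate 1 and 39.6 in replicate 2 of fem-2(b245ts). Replicate 1 of fem-3(q20ts) was high, and replicate 2 lay within the range of fem-2(b245ts). The samples averaged 97.8 ± 68.4 in fem-3(q20ts) and 48.8 ± 13.0 in fem-2(b245ts) (SD, n = 2 each). The log2 difference was 0.83 (SE 0.60, 95% interval -0.70 to 2.35; limma adjusted p = 0.625), the fourth highest of the 94.

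The miR-247 value rested on 1 sample: without fem-3(q20ts) replicate 1 the log2 difference was 0.043, and without fem-3(q20ts) replicate 2 it was 1.61. Its signal exceeded the Buffer spots on 3 of 3 arrays of fem-3(q20ts) and on 1 of 3 of fem-2(b245ts), the 2 below being those of replicate 1, whose Buffer levels were 127 and 114. With intensities floored at the Buffer level the difference was 0.30. On the scanner, the miR-247 spots of the first array of replicate 1 had mean intensities of 417 to 451 over a local background of 224 to 225 in fem-3(q20ts), and of 280 to 301 over 232 to 239 in fem-2(b245ts). In replicate 1 the difference was 1.33 on the scaled values and 1.27 after normexp and quantile normalization.

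miR-45 showed no steady direction. Its intensity was 431 and 482 on the technical arrays of replicate 1 and 779 in replicate 2 of fem-3(q20ts), against 708 and 475 on those of replicate 1 and 747 in replicate 2 of fem-2(b245ts). The genotypes overlapped, and in both of them replicate 2 was above replicate 1. It averaged 617 ± 229 in fem-3(q20ts) and 664 ± 118 in fem-2(b245ts) (SD, n = 2 each), with a log2 difference of -0.14 (SE 0.39, 95% interval -1.15 to 0.86; limma adjusted p = 0.909), which was -0.35 for replicate 1 and 0.059 for replicate 2. The sign changed after quantile normalization (0.12), median centring (0.22) and scaling on the spike control (0.42).

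miR-44, whose oligo is named for a gene with the same mature product as that of miR-45, followed it closely. The log2 signals of the pair differed by -0.11 to 0.12 over the 6 arrays, and the difference of miR-44 between the genotypes was -0.078 (SE 0.43; limma adjusted p = 0.909). Across the 4 biological samples miR-44 was also the miRNA with the profile nearest to that of miR-45, at a root mean square distance of 0.064 on the log2 scale after each profile was centred, beside a median of 0.42 over all other tested miRNAs. The next nearest were miR-84 and miR-1, both at 0.12. In the seed family of miR-61 as a whole, 0 of 4 tested members were called, against 8.51% of all tested miRNAs. Of the 4, 1 had a positive and 3 had negative differences, beside 54 positive and 40 negative over all 94, and their median was -0.11. miR-44 and miR-45 are 2 of these 4 and, sharing a mature sequence, do not count as separate measurements.

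The members of that seed family were also set against each other within arrays. The signal of miR-61 minus that of miR-45 was -1.94 and -2.75 in fem-3(q20ts) replicates 1 and 2, against -1.80 and -1.13 in fem-2(b245ts), a difference of -0.88 (-0.14 for replicate 1 and -1.62 for replicate 2; exact permutation p = 0.333, adjusted 0.444). The arrays of the genotypes overlapped for this pair. For miR-61 minus miR-247 the values were -0.30 and 1.23 in fem-3(q20ts) replicates 1 and 2, against 1.52 and 3.11 in fem-2(b245ts), a difference of -1.85 (exact permutation p = 0.333, adjusted 0.444). It was -1.82 for replicate 1 and -1.88 for replicate 2, and miR-61 gave the smaller share of it in replicate 1 and the larger in replicate 2. Both replicates of one genotype differed from each other by over 1 in this gap, with an SD of 1.08 in fem-3(q20ts) and 1.12 in fem-2(b245ts). On both fem-2(b245ts) arrays of replicate 1 miR-247 was not above the Buffer level, so the gap has no exact size there. With intensities floored at that level the gap was -0.62 to 1.23 on the fem-3(q20ts) arrays and 0.35 to 3.11 on the fem-2(b245ts) arrays, which overlapped, and the difference was -1.33 (exact permutation p = 0.667).

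**Figure D3:**
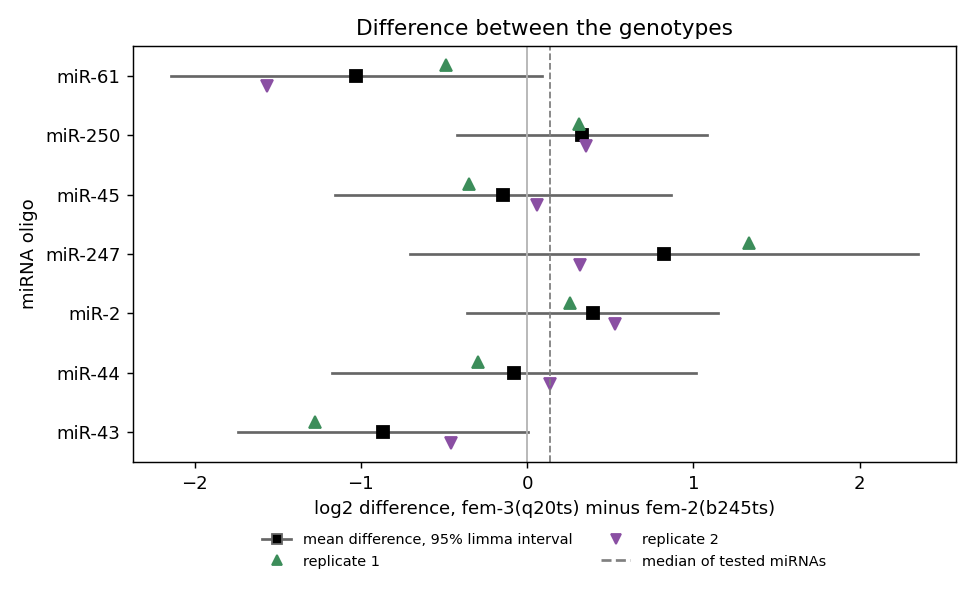
Log2 difference (fem-3(q20ts) minus fem-2(b245ts)) of the 5 members and of miR-44 and miR-43, with the 95% limma interval, and the difference between samples of the same replicate number. Each interval includes 0; the replicates lie furthest apart for miR-61 and miR-247 and nearest for miR-250, and the dashed line is the median of the tested miRNAs (0.14).

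miR-2, the seed relative of miR-250, had a difference of similar size and the same sign. Its intensity was 1069 and 1204 on the technical arrays of replicate 1 and 1196 in replicate 2 of fem-3(q20ts), against 942 and 953 on those of replicate 1 and 830 in replicate 2 of fem-2(b245ts). The 3 arrays of fem-3(q20ts) were all above the 3 of fem-2(b245ts). Biological samples averaged 1165 ± 43.7 in fem-3(q20ts) and 889 ± 83.4 in fem-2(b245ts) (SD, n = 2 each). The log2 difference was 0.39 (SE 0.29, 95% interval -0.36 to 1.15; limma adjusted p = 0.625), with 0.26 for replicate 1 and 0.53 for replicate 2. Here too the size depended on the scaling, at 0.069 on the miRNAs outside miR-35 to miR-41 and 0.95 on the spike control. The gene of miR-2 lies on chromosome I, apart from that of miR-250.

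Within arrays, miR-250 minus miR-2 was -1.97 and -1.90 in fem-3(q20ts) replicates 1 and 2, against -2.02 and -1.72 in fem-2(b245ts), a difference of -0.063 that was smaller than the replicate SD of fem-2(b245ts), 0.21 (exact permutation p = 1). Of all other tested miRNAs, miR-250 had the profile nearest to miR-2, at a root mean square distance of 0.11, followed by miR-50 (0.13) and miR-229 (0.15), with a median of 0.38. Seen from miR-250, the nearest were miR-50 (0.047), miR-124 (0.10) and miR-48 (0.11). These likenesses rest on 4 samples that share their arrays and scaling, and they are descriptions without a test. The third tested miRNA of the miR-2 family, miR-43, had the opposite sign: it was at 48.8, 62.0 and 71.9 on the fem-3(q20ts) arrays and at 166, 107 and 98.8 on the fem-2(b245ts) arrays, with a log2 difference of -0.87 (SE 0.34; limma adjusted p = 0.379). On 2 of 3 fem-2(b245ts) arrays miR-43 was above the Buffer level. Its gene lies beside that of miR-44 on chromosome II. In the miR-2 family 0 of 3 tested members were called, against the 8.51% over all tested miRNAs, and 2 had positive differences and 1 a negative one, beside 54 and 40 of the 94.

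Distances of miR-61 to its nearest profiles exceeded those of miR-250, miR-45 and miR-2 to theirs. Its median distance to the other tested miRNAs was larger as well. Its nearest profiles were those of miR-265 at 0.23, miR-271 at 0.28 and miR-70 at 0.39, beside a median of 0.80, and these had log2 differences of -0.62, -0.86 and -0.70. miR-247 stood further apart still, with miR-78, miR-236 and miR-60 at 0.41 each and a median of 0.85. Among the members, the distance between miR-61 and miR-250 was 0.76 and that between miR-61 and miR-247 was 1.21.

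**Figure D4:**
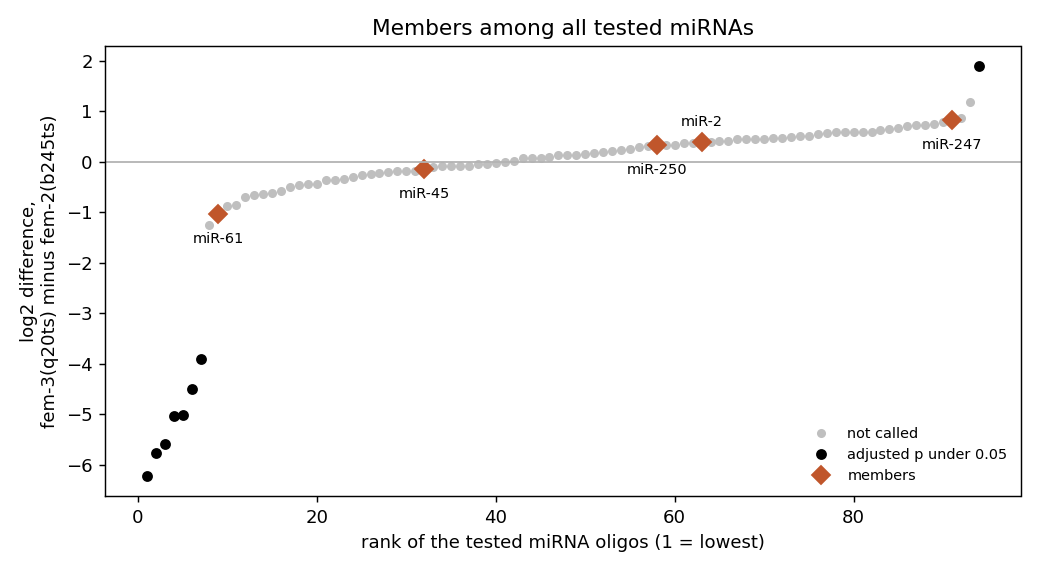
Log2 differences (fem-3(q20ts) minus fem-2(b245ts)) of the 94 tested miRNAs in order, with called miRNAs in black and the 5 members as diamonds. miR-61 (-1.03) lies just above miR-42 at the low end of the uncalled miRNAs, and miR-247 (0.83) near the high end.

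Other scalings shifted the members largely together. Over the other scalings tried, the median difference of all tested miRNAs ran from -0.19 (scaling on the miRNAs outside miR-35 to miR-41) to 0.70 (scaling on the spike control). miR-61 stayed lower in fem-3(q20ts) under all of them, at -1.35 to -0.47, and at -1.16 to -1.14 relative to the median difference. All of these scalings but quantile normalization multiply an array by 1 factor, so they leave the differences between miRNAs almost fixed by construction. miR-250 ran from 0.0063 to 0.89 and miR-2 from 0.069 to 0.95, both lowest on the miRNAs outside miR-35 to miR-41. Relative to the median over the scalings, miR-250 was at 0.20 to 0.32 and miR-2 at 0.17 to 0.26. miR-247 was at 0.50 to 1.39 and miR-45 at -0.47 to 0.42, and relative to the median miR-247 was at 0.69 to 0.77 and miR-45 at -0.31 to -0.28. Over all alternatives, left-out samples included, the value relative to the median ran from -1.55 to -0.87 for miR-61, 0.016 to 0.41 for miR-250, -0.61 to -0.034 for miR-45, -0.23 to 1.53 for miR-247 and -0.070 to 0.49 for miR-2.

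**Figure D5:**
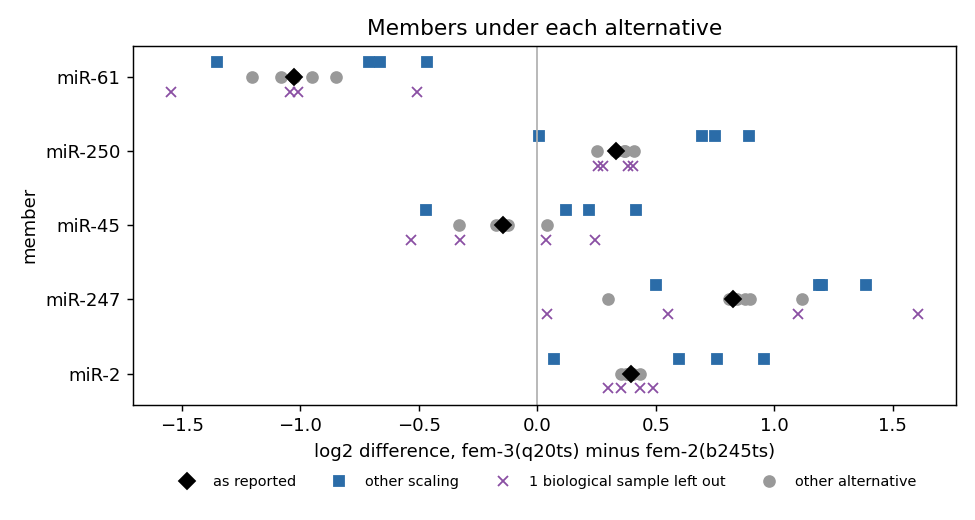
Log2 difference (fem-3(q20ts) minus fem-2(b245ts)) of each member as reported and under each alternative, with other scalings and left-out samples marked apart. miR-61 stays below 0 and miR-45 falls on both sides. miR-250, miR-247 and miR-2 stay above 0, but their lowest values are only 0.0063, 0.043 and 0.069 in that order.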

How the data were processed

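Whole-adult RNA of 4 biological samples was hybridised to 6 one-colour Cy3 spotted arrays. The deposited value table holds intensity per spot, scaled by the authors to one total intensity per array, per the series' design text. Its 6 columns have the same sum. For the 4 arrays of replicate 1, the deposited scanner files also give spot and background intensity, a signal-to-noise score and the percent of saturated pixels, per the file headers. The scanner model is not given in the sources used here, nor is its software. Names of spots came from the scanner files, joined by spot number, so names on the replicate 2 arrays assume the same layout.

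Values under 12.8, the 10th percentile of positive intensities, were raised to it, log2-transformed and averaged over 4 spots, then over technical arrays. An oligo was tested if its mean exceeded 36.5 (the mean over samples of the 95th percentile of the 32 Buffer spots), which kept 94 of 108. Differences were tested two-sided with limma 3.58.1 in R 4.3.3 (lmFit, eBayes, unpaired, Benjamini-Hochberg over all 94, 2 residual and 3.05 prior degrees of freedom). The script was tested on simulated data. The number of arrays limits the precision. Figures were drawn with matplotlib 3.10.9.

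The named miRNAs were the 5 members, miR-44 and miR-43 as their tested family members, and the 3 nearest profiles of each member. miR-42 and miR-87 were named after their values were seen. Members and lists were chosen with earlier results of these data known. Of the 108 names, 99 matched a gene symbol of the WBcel235 annotation. The replicate numbers are shared between the genotypes, and so is a token in the array descriptions whose meaning the labels do not give. Over the tested miRNAs, replicate 1 minus replicate 2 correlated between the genotypes with r = 0.711 (miRNAs are not independent). With 2 pairs the numbers were not taken to pair the samples, and the block was an alternative. The other alternatives were scalings, floors, filters, spot summaries, single technical arrays, limma variants, left-out samples and scanner signals. The scanner values before scaling were added after the data were seen.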

Additional observations from a re-analysis of the deposited data

How the results depend on the processing

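None of the 5 members passed the threshold under any of the limma alternatives run, with adjusted p-values from 0.101 to 0.995. miR-61, miR-250 and miR-2 kept their sign in 19 of 19 alternatives and miR-247 in 18 of 18. The block, the filters, a lower floor and the eBayes variant with trend leave a member's difference unchanged by construction. These counts therefore overstate how often the sign was put to a check. miR-247 was left out where only oligos above the Buffer level on all arrays were tested, a filter that left 59 miRNAs and 4 called. The other alternatives called 7 to 9 miRNAs, beside 8 as reported. miR-45 turned positive in 6 of 19: at 0.12 after quantile normalization, 0.22 after median centring, 0.42 on the spike control, 0.039 with only technical array 2 of replicate 1, and in the range of -0.53 to 0.24 with 1 biological sample left out. The same omissions gave -1.55 to -0.51 for miR-61, 0.26 to 0.40 for miR-250, 0.043 to 1.61 for miR-247, 0.30 to 0.49 for miR-2 and -0.21 to 0.086 for miR-250 minus miR-2, which was reversed without fem-2(b245ts) replicate 2; the cause was not tested. For miR-61 minus miR-250, miR-45 and miR-247 the sign was kept in 11 of 11 alternatives, with ranges over the omissions of -1.83 to -0.89, -1.29 to -0.48 and -2.65 to -1.06 in that order. The block and a lower floor could not change these gaps. With the replicate as a block, 9 miRNAs were called, and the limma adjusted p of miR-61 (-1.03) was 0.162 and that of miR-247 (0.83) was 0.201, so no member's call changed. The 95% interval of each member's difference included 0.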
